A study of Mus musculus with 4 samples.

Results

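The trophoblast lineage genes described here are 7 mouse genes, Elf5, Cdx2, Gata3, Tfap2c, Tfap2a, Tead4 and Psg17, out of 28777 genes listed. All of their rows were taken by gene name, whatever their values: 14 of 55200 gene features, which are a promoter and a body for each gene, and 50 of 80045 CpG island features, which are islands, shores and shelves. The promoter of the table reaches 500 bp to either side of the listed start. Shores are the 2 kb next to an island, and shelves the next 2 kb. Methylation was read by reduced representation bisulfite sequencing, in which the enzyme MspI cuts genomic DNA at CCGG, so that only DNA near such sites is read. The cells were CGR8, a line of mouse embryonic stem cells grown with serum and LIF. Control cells carried the empty vector ppy-cagg-ires-puro by stable transfection, and netrin-1 cells carried ppy-cagg-netrin-ires-puro, which expresses a netrin-1 transgene, so both groups share the transfection and the vector's puro gene. There were 2 libraries per group, and the labels do not say whether these came from separate transfections, clones or cultures, so the p-values measure the spread between libraries, which may be technical. Cytosine calls in gene features numbered 31452170 and 41964981 in control replicates 1 and 2 and 36269454 and 53293458 in netrin-1 replicates 1 and 2. Expression was not measured here, so cell identity could not be checked against marker RNA.

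The trophoblast is the outer lineage of the blastocyst and forms most of the fetal part of the placenta. In the outer cells of the mouse embryo TEAD4, a DNA-binding protein of the Hippo pathway, turns on Cdx2 and Gata3 together with its partner YAP. CDX2, GATA3 and the AP-2 factors TFAP2C and TFAP2A then act in trophoblast cells, and ELF5 helps to keep trophoblast stem cells in their state. Elf5 is known in the mouse for a promoter that is methylated in embryonic stem cells and unmethylated in trophoblast stem cells. Psg17 encodes a pregnancy-specific glycoprotein, a secreted product of the placenta.

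RefSeq promoter sequences on GRCm38.p6, from 250 bases before to 50 after a start, were found for 5 of the 7 genes and gave 7 sequences. The sequences of 4 genes follow, for the starts where the methylation table had no calls, few calls or a start elsewhere. Each is written 5′ to 3′ along the gene, with every CG, the site of methylation, in capitals.
Elf5, first start, chr2:103411848-103412147, plus strand: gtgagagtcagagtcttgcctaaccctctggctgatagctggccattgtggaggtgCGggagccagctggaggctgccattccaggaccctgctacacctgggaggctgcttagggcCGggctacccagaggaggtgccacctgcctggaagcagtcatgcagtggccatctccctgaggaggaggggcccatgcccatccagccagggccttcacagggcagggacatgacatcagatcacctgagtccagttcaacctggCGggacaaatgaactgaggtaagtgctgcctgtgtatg
Elf5, second start, chr2:103423818-103424117, plus strand: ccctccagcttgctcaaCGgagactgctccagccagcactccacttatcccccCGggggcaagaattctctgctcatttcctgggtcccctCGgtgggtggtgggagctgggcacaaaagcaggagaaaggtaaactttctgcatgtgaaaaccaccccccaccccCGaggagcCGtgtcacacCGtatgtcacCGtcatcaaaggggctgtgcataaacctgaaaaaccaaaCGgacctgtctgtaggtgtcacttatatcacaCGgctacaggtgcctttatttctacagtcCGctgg
Gata3, chr2:9878551-9878850, minus strand: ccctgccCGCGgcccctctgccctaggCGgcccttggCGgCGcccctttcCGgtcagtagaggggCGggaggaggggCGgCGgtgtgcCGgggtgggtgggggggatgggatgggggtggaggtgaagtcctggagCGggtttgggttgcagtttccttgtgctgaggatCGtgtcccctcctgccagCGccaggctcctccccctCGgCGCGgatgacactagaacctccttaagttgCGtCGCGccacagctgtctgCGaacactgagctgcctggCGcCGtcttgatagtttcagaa
Tfap2a, start nearest the listed one, chr13:40733746-40734045, minus strand: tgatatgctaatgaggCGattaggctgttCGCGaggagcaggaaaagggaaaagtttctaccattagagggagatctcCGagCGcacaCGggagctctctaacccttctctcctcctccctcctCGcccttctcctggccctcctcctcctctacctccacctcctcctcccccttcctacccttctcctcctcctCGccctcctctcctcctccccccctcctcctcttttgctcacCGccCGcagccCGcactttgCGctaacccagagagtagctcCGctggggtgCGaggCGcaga
Psg17, chr7:18821542-18821841, minus strand: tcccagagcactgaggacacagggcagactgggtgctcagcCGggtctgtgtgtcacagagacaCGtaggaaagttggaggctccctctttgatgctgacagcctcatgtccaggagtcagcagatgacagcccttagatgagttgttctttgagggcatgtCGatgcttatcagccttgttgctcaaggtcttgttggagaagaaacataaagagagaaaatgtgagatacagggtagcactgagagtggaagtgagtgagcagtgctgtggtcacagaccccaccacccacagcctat

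The sequence at the first Elf5 start holds 3 CG and 1 CCGG, and that at the second start, 12380 bp downstream of the listed one, holds 10 CG and 1 CCGG. The Gata3 sequence holds 22 CG and 2 CCGG. The Tfap2a sequence holds 15 CG and no CCGG, as does the Cdx2 sequence not shown, with 18 CG and no CCGG, and the Psg17 sequence holds 3 CG and 1 CCGG. Over 32851 RefSeq promoters of the same length the median number of CG was 7.0, and 52.8% held the letters CCGG, which read the same on both strands. These letters in the sequence did not always go with calls in the wider promoter of the table. The Elf5 promoter had no calls although its first sequence holds 1 CCGG. The Cdx2 promoter had 225 to 772 calls per library although its sequence holds no CCGG. For Tfap2a, with no CCGG, there were no calls, and for Psg17, with 1 CCGG, there were 14 to 26 calls per library.

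The Elf5 promoter of the table (chromosome 2, 103411188 to 103412188) had no calls in any of the 4 libraries, so the methylation of this region, which contains the first sequence above, was not measured. It is a promoter without a CpG island, and 69.7% of such promoters had no calls. Elf5 also has no CpG island feature. The Elf5 body (103412188 to 103450989), which contains the second start, was read at 50 to 59 positions with 998 to 1810 calls per library. Its level was 43.8% and 52.6% in the controls and 46.2% and 45.1% in the netrin-1 libraries. Both netrin-1 values lie between the controls, so the groups overlap. The means were 48.2% ± 6.26 and 45.7% ± 0.763 (SD, n = 2). The log odds ratio was -0.113 with a standard error of 0.148 (quasi-binomial test with dispersions moderated by limma, adjusted p = 0.782). Below, the word limma beside an adjusted p stands for this same test. The Elf5 body was the most highly methylated body of the 7 genes. Its control level lay at percentile 83.5 of the 7841 measured bodies of genes without a promoter island.

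Tead4 (chromosome 6, minus strand) had an unmethylated start and a methylated body. Its promoter (128300323 to 128301323), read with 1668 to 4004 calls per library, stood at 0.659% and 0.570% in the controls and 1.25% and 0.849% in the netrin-1 libraries. The island at the start (128300213 to 128300948), which is mostly the same DNA, stood at 0.452% and 0.479% in the controls and 1.07% and 0.907% in netrin-1 cells. Each netrin-1 library was above each control in both features, by 0.436 and 0.522 percentage points on the means. These features held too little information for the test, which needed calls × level × (1 - level) to average at least 25 per library with the level as a proportion, and the 95% Wilson intervals of the island, 0.229% to 0.889% in control replicate 1 and 0.659% to 1.25% in netrin-1 replicate 2, overlap. The Tead4 body (128224288 to 128300323) stood at 42.9% and 38.0% in the controls and 39.8% and 39.5% in netrin-1 cells. The netrin-1 values again lie between the controls (limma, adjusted p = 0.955).

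Inside the gene, levels stayed low past the island at the Tead4 start. The shore inside the gene (128298213 to 128300212) stood at 1.81% and 1.20% in the controls and at 0% in both netrin-1 libraries, on 218 netrin-1 calls, which allows a level of up to 1.38%. The shore before the start (128300949 to 128302948) rested on 2 positions and 21 to 78 calls per library. It stood at 14.3% and 3.28% in the controls and 13.6% and 2.56% in netrin-1 cells, so replicates differed far more than groups. The shelf inside the gene stood at 5.51% ± 3.35 and 3.90% ± 0.194 (SD, n = 2), and the other shelf had no calls.

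Cdx2, the caudal-type homeobox gene (chromosome 5, minus strand), was lowly methylated over its start and body. Its promoter (147306770 to 147307770) stood at 5.78% and 0.208% in the controls and 1.78% and 1.81% in netrin-1 cells, on 225 to 772 calls per library. The spread lies in the controls, whose 95% Wilson intervals of 3.41% to 9.63% and 0.0368% to 1.17% do not overlap, while the netrin-1 libraries lie between them. The body (147300805 to 147306770) stood at 5.05% and 3.84% in the controls and 3.88% and 2.81% in netrin-1 cells (limma, adjusted p = 0.720). The island at the start (147306137 to 147307352) averaged 1.18% ± 1.16 in the controls against 1.33% ± 0.785 in netrin-1 cells, and the island inside the gene (147304491 to 147305161) at 2.74% ± 2.11 and 0.787% ± 1.11 (SD, n = 2). The shore inside the gene (147304137 to 147306136), which contains that inner island, stood at 7.40% and 2.39% in the controls and 1.85% and 2.03% in netrin-1 cells. It was the 1 Cdx2 feature of either table whose groups did not overlap, and most of its difference of -2.95 points came from control replicate 1. Levels were higher in the shelves, from 11.01% to 20.0% per library in those toward the gene's 3′ end and from 6.33% to 27.0% in the shelf before the start (147309353 to 147311352).

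Gata3, a zinc finger factor gene, lies on the minus strand of chromosome 2. The table's start (9890034) lies 11434 bp before the RefSeq start whose sequence is shown above, so the table's promoter and the RefSeq promoter are different DNA. The table's promoter (9889534 to 9890534) stood at 10.9% and 3.93% in the controls and 1.59% and 2.53% in netrin-1 cells, on 126 to 356 calls per library. Each netrin-1 library was below each control, and the mean difference of -5.36 points is close to the control SD of 4.93. The RefSeq promoter sequence lies within a shelf (9876957 to 9878956) that was read at 67 to 94 positions with 1014 to 2534 calls. That shelf stood at 2.66% and 2.24% in the controls and 0.521% and 1.07% in netrin-1 cells. The shelf that holds the RefSeq start was thus lowly methylated in every library, and its groups did not overlap. Its means were 2.45% ± 0.2998 and 0.793% ± 0.385 (SD, n = 2). These levels are averages over the whole shelf, and the level at the RefSeq start alone was not available. Neither the table's promoter nor this shelf had enough information to be tested.

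The Gata3 body (9857078 to 9889534), which includes this shelf, was the most deeply read member, with 10637 to 17676 calls per library. It stood at 8.41% and 8.35% in the controls and 7.29% and 5.62% in netrin-1 cells. The groups did not overlap, and the mean difference was -1.93 points, with a netrin-1 SD of 1.18. The log odds ratio was -0.314 with a standard error of 0.143. The quasi-binomial test moderated by limma gave an unadjusted p of 0.0428 and an adjusted p of 0.372. The difference was -2.77 points without netrin-1 replicate 1 and -1.10 points without netrin-1 replicate 2. The level of the Gata3 body was low, at percentile 11.6 of the bodies of genes without a promoter island. Its difference with all libraries was ordinary among them, at percentile 52.8. Both that class and this body follow the table's start, and the RefSeq start lies inside the body. Among all measured bodies its level lay at percentile 16.5. The Gata3 island (9874642 to 9874956) stood at 6.10% and 5.95% in the controls and 4.39% and 1.75% in netrin-1 cells. The tested shelf and shore beside it differed by -0.00355 and -0.169 points, with overlapping groups.

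Tfap2c, the AP-2γ gene (chromosome 2, plus strand), had a low level at its start and a higher one in a shelf past its island. Its promoter (172549093 to 172550093) stood at 1.29% and 1.4996% in the controls and 0.266% and 1.26% in netrin-1 cells. Its island (172549569 to 172551833), read at 241 to 261 positions with 3086 to 5873 calls per library, stood at 0.907% and 1.17% in the controls and 0.378% and 0.664% in netrin-1 cells. Each netrin-1 library was below each control in both, and the island, the only member island with enough information to test, had a log odds ratio of -0.646 with a standard error of 0.361 (limma, adjusted p = 0.488). A shore (172548975 to 172550974) and a shelf (172550975 to 172552974) listed for a neighbouring island overlap this one and repeat its calls in part. In the shelf past the island's 3′ shore (172553834 to 172555833) the level was 70.6% and 36.6% in the controls and 47.1% and 32.5% in netrin-1 cells, on 238 to 366 calls. Control replicate 1 stands apart there, and without it the difference of -13.8 points became 3.23 points (limma, adjusted p = 0.608 with all libraries, from 0.0670 to 0.957 over the alternatives). The body, which holds that shelf and most of the island, stood at 9.71% and 6.88% in the controls and 5.96% and 7.01% in netrin-1 cells (limma, adjusted p = 0.650).

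Tfap2a, the AP-2α gene (chromosome 13, minus strand), has 4 islands and 20 of the 50 CpG island features. Its promoter (40733323 to 40734323) and the island at its start (40733527 to 40733807) had no calls in any library, although only 2.32% of promoters with an island had none. The DNA to either side was read and had low levels. The island 2819 bp into the gene by its centre (40730164 to 40731844) stood at 0.567% and 0.429% in the controls and 0.741% and 0.611% in netrin-1 cells, so that each netrin-1 library was above each control, by 0.178 points on the means, with Wilson intervals that overlap. The shore that begins at the start and runs upstream (40733808 to 40735807), which holds another RefSeq start, stood at 1.62% and 3.43% in the controls and 0.461% and 3.91% in netrin-1 cells. Replicates differed more than groups there. The Tfap2a body (40715675 to 40733323) was the least methylated of the 7, at 1.93% and 1.80% in the controls and 1.31% and 0.845% in netrin-1 cells (log odds ratio -0.617 with a standard error of 0.392, limma, adjusted p = 0.515).

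The Tfap2a features with the greatest differences were shores and a shelf. The upstream shore of the intergenic island (40738230 to 40740229) stood at 7.64% and 8.50% in the controls and 2.81% and 3.69% in netrin-1 cells, with means of 8.07% ± 0.610 and 3.25% ± 0.617 (SD, n = 2). The groups were separated by several times their spread, and the log odds ratio was -0.938 with a standard error of 0.406. The quasi-binomial test moderated by limma gave an unadjusted p of 0.0252 and an adjusted p of 0.336, so the feature was not called. A shore 4659.5 bp into the gene by its centre (40728164 to 40730163) stood at 2.42% and 3.26% in the controls and 0.840% and 0.371% in netrin-1 cells. A further shore (40723396 to 40725395) stood at 7.78% ± 1.98 and 3.41% ± 2.70, and the shelf next to it (40725396 to 40727395) at 4.99% ± 1.08 and 0.820% ± 1.16 (SD, n = 2), the latter on 3 to 4 positions. The outermost upstream shelf (40740230 to 40742229) was at 13.8% ± 1.59 and 13.3% ± 0.606, with overlapping groups.

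Psg17 (chromosome 7, minus strand) was read thinly. Its promoter (18821107 to 18822107) rested on 2 to 4 positions and 14 to 26 calls per library. It stood at 21.4% and 68.4% in the controls and 12.5% and 26.9% in netrin-1 cells. The mean difference of -25.2 points is smaller than the control SD of 33.2, the groups overlap, and the 95% Wilson interval of control replicate 2 alone ran from 46.0% to 84.6%. The body (18813937 to 18821107) stood at 11.2% and 14.8% in the controls and 16.3% and 7.84% in netrin-1 cells, on 8 to 11 positions (limma, adjusted p = 0.971). None of the promoters of the other 12 Psg genes in the table had calls, and 3 of their bodies did, at a median control level of 48.7%. Psg genes are near copies of one another, and whether reads were placed in the wrong copy was not tested. The Psg17 values also rest on few positions and are uncertain.

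**Figure D1:**
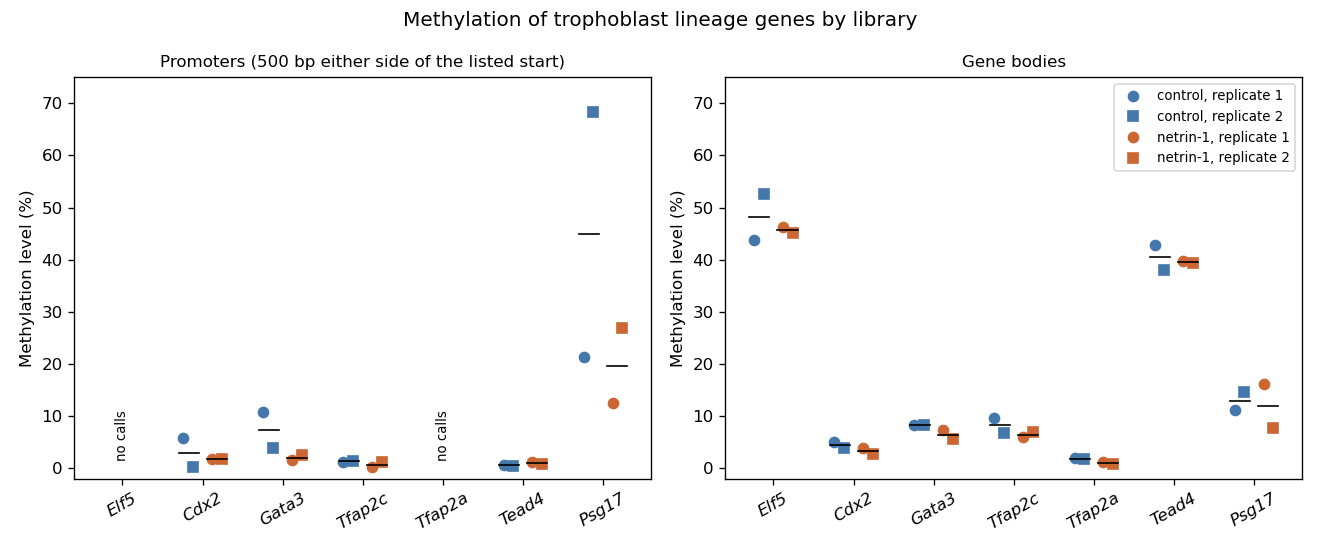
Methylation level (percent of calls that were methylated) of the promoter and the body of each gene in every library, with blue points for control, orange points for netrin-1 and black lines for group means. Elf5 and Tead4 bodies lie between 38.0% and 52.6% in every library and the other bodies lie at or under 16.3%, while the 2 controls of the Psg17 promoter are 21.4% and 68.4%.

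**Figure D2:**
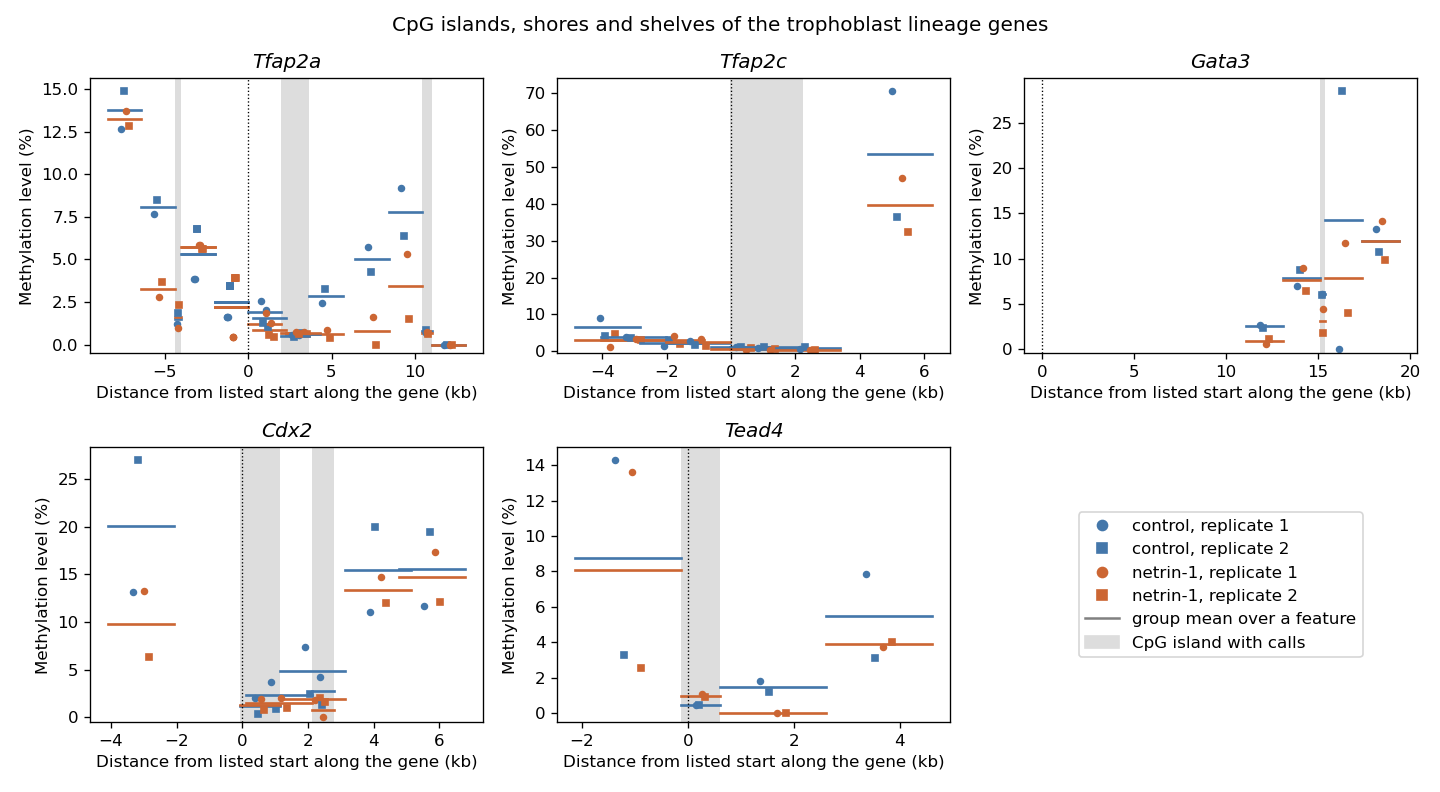
Levels of the islands, shores and shelves of the 5 genes that have them, for features with at least 10 calls in every library, against distance from the start listed in the table, with points for libraries, lines for group means and grey bands for islands. Scales differ between panels: levels were at or under 6.10% in every island and reached 70.6% in the Tfap2c shelf.

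Across the 7 genes, 10 or more calls in each library were reached by 12 of 14 gene features and 41 of 50 CpG island features, and 7 bodies, 6 shelves, 4 shores and 1 island had enough information to be tested. The CpG island features are not separate measurements: 4 of them repeat the calls of another exactly, and more overlap in part. None of the 18 tested features was called. Over all tested gene features 0.00581% (1 of 17209) were called, and over all tested CpG island features 0.186% (22 of 11815), so with 18 tested features a count of 0 is near the background. At an unadjusted p under 0.05 there were 1 of 7 bodies (Gata3) and 1 of 11 CpG island features (a Tfap2a shore), against 12.8% of all tested gene features and 12.1% of all tested CpG island features, so both counts are near the background. With limma run on percentage points, and run on M values, no member was called either, with 0 and 1 gene features and 1 and 2 CpG island features at an unadjusted p under 0.05.

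Counts of features whose groups did not overlap were read against the same counts over all features with at least 10 calls in every library. Each netrin-1 library was below each control in 2 of 5 promoters (Gata3 and Tfap2c, against 21.0% of all promoters) and in 2 of 7 bodies (Gata3 and Tfap2a, against 33.7%). The same held for 2 of 8 islands (20.1%), 6 of 17 shores (23.9%) and 4 of 16 shelves (28.0%). Each was above each control in 1 promoter (Tead4, against 13.2%), 2 islands (Tead4 and Tfap2a, 13.7%), and in no body (7.59%), shore (9.96%) or shelf (10.1%). With so few features these shares do not set the genes apart from the rest of the tables, which were also lower in netrin-1 cells.

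By level, the medians of the bodies, shelves and shores were lower than those over the tables, although the Elf5 and Tead4 bodies were above the median body. The median control level of the 7 bodies was 8.38%, against 30.2% for all bodies, and that of the 16 shelves was 5.40%, against 28.0%. Low shelves of Tfap2a (40729527 to 40731526, 0.626%) and Tfap2c (172550975 to 172552974, 0.914%) overlap islands. The low Gata3 shelf (2.45%) holds the RefSeq start, and the Tfap2a shelves from 40733840 and from 40733845 (2.52% each) hold the same calls. The shelf median thus does not describe only shelves that lie clear of islands. Shores stood at a median of 2.52% against 4.53%, and islands at 1.11% against 1.08%. The 5 measured promoters went the other way, with a median control level of 2.99% against 1.28% and a median difference of -1.20 points against -0.137 points. Both medians are the values of the Cdx2 promoter, whose groups overlap and whose controls were 5.78% and 0.208%. The table's promoters of Gata3 and Psg17 have no CpG island, and that of Gata3 is not at its RefSeq start. Over the whole table such promoters had a median control level of 12.45%, against 1.04% for promoters with an island. The median difference of the bodies was -1.10 points against -1.74 points for all bodies, and all 7 bodies were lower on the means, as were 70.3% of all bodies, although those of Elf5, Tead4 and Psg17 were higher once the libraries were centred on a common level. The median differences were -0.00356 points in islands, -0.686 points in shores and -0.764 points in shelves, against -0.0878, -0.505 and -1.24 points over all. The mean promoter difference of -6.39 points rested on the thinly read Psg17 and was -1.69 points over the 4 promoters with at least 30 calls in every library, against a mean of -0.678 points for all promoters.

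**Figure D3:**
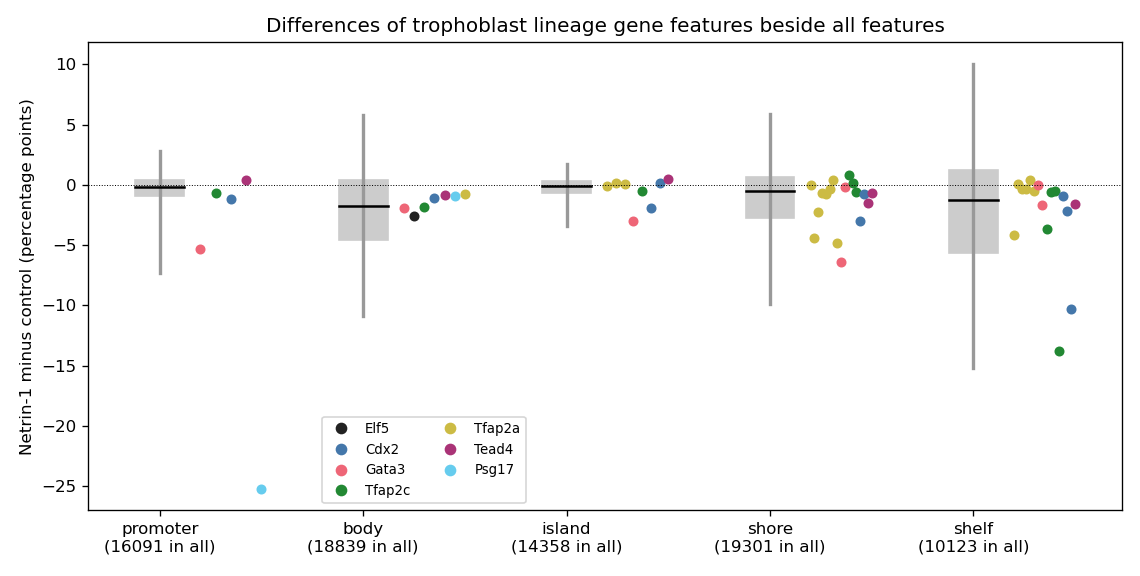
Difference of mean level, netrin-1 minus control, of each feature of the 7 genes with at least 10 calls in every library (coloured points, in percentage points) beside all features of the class (grey bar, percentiles 25 to 75; grey line, percentiles 5 to 95; black line, median). All points but that of the Psg17 promoter, at -25.2 points, lie within the grey lines, most of them below 0.

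The surroundings of the genes were compared in 100 kb windows. In the windows that hold the starts of Cdx2, Gata3, Tfap2c, Tfap2a, Tead4 and Psg17, each netrin-1 library was below each control, as in 47.1% of all windows. Their differences ran from -2.09 points (Tfap2c) to -5.09 points (Tead4), against a median of -3.47 points over all windows. The Elf5 window averaged 43.1% ± 2.68 in the controls against 43.1% ± 0.183 in the netrin-1 libraries (SD, n = 2), which overlap. The Psg17, Tfap2a and Gata3 windows had low control levels of 15.0%, 16.7% and 17.8%, all under percentile 5 of the windows.

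Coverage differed between the groups at 2 of the genes. Scaled to the total calls of each library, netrin-1 libraries had 1.42 times the control coverage in the Tead4 window and 0.728 times in the Tfap2a window. The median over the 49 or 50 windows within 2.5 Mb was 1.35 around Tead4 and 0.707 around Tfap2a, against 0.985 to 1.05 around the other 5 genes. In 90% of all windows the ratio lay between 0.700 and 1.33. The part that this has in the levels of Tead4 and Tfap2a was not tested.

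**Figure D4:**
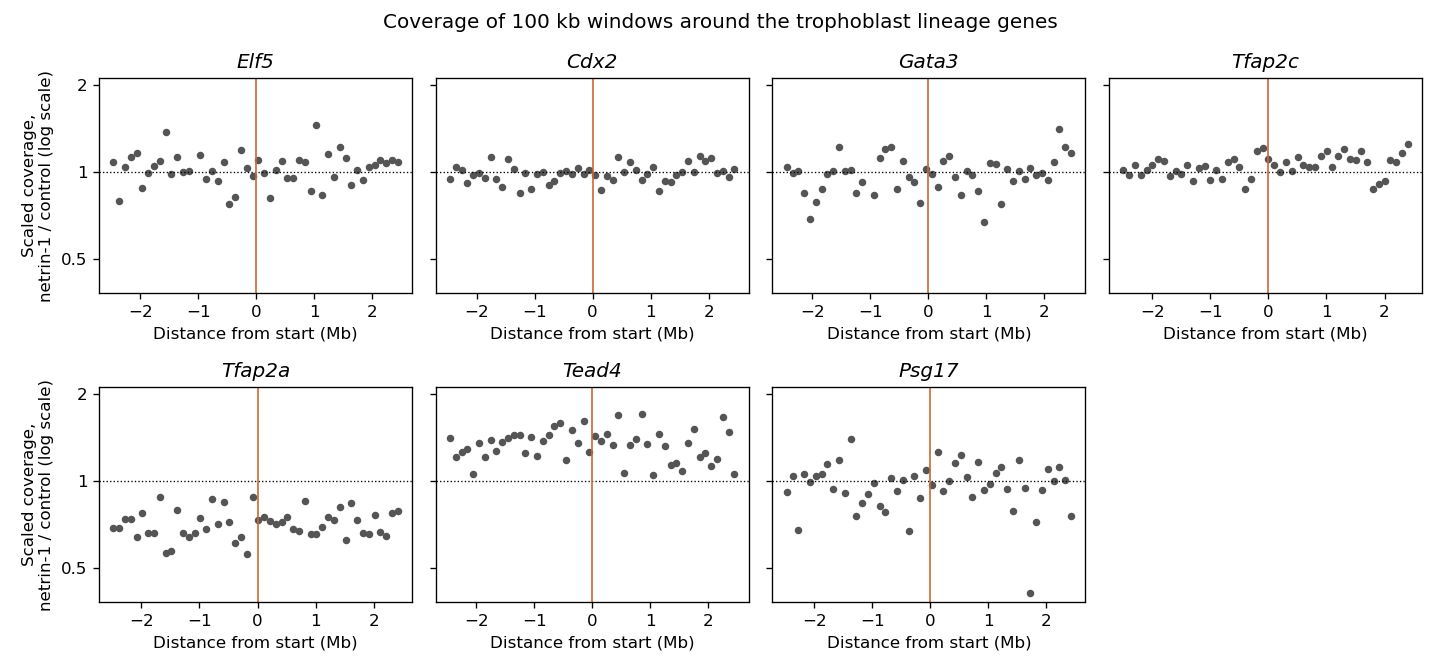
Ratio of scaled coverage, netrin-1 over control, in 100 kb windows within 2.5 Mb of each listed start (points; log scale; the dotted line marks equal coverage and the vertical line the start). Windows around Tead4 lie above the line, with a median of 1.35, and those around Tfap2a below it, with a median of 0.707.

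Related genes mostly had low promoter levels, as did promoters over the whole table. Median control levels were 1.87% for the trophoblast, 0.980% for the Hippo and 3.09% for the paralog promoters described below, against 1.28% for all promoters. Few promoters of the related genes had enough information to be tested, and none of their tested promoters and bodies was called. Of 29 other trophoblast regulators and markers, 22 promoters were measured, at a median control level of 1.87% and a median difference of -0.159 points, against -0.137 points for all promoters. Each netrin-1 library was below each control in 4 of them, against 21.0% of all promoters, and in 11 of 24 bodies, against 33.7% of all bodies. Bmp4, a signalling protein made in the extraembryonic ectoderm of the mouse embryo, had the greatest such promoter difference, with 4.35% and 1.70% in the controls and 0% and 0.439% in netrin-1 cells. Eomes, a T-box factor gene of trophoblast stem cells, stood at 4.92% and 1.78% against 1.36% and 1.74%, and Ets2 at 3.37% and 2.46% against 0.866% and 1.94%. For Eomes the value of netrin-1 replicate 2 is barely under that of control replicate 2. In the list of 17 Hippo pathway genes, which act upstream of or beside TEAD4, 4 of 15 promoters with enough calls had a lower mean and 11 a higher one (median difference 0.135 points), where 56.5% of all promoters had a lower mean. Of these 15 promoters, each netrin-1 library was below each control in 2 (21.0% of all promoters) and above each control in 2 (13.2%). The greatest differences without overlap were in Tead3 (0.527% ± 0.746 and 2.60% ± 1.99), Vgll4 (0.964% ± 0.462 and 2.61% ± 1.76) and Tead1 (1.32% ± 0.117 and 0.248% ± 0.131; SD, n = 2), of which only Tead1 was lower in netrin-1 cells. In Tead3 and Vgll4 the groups were barely apart. The higher control stood at 1.05% and 1.29%, and the lower netrin-1 library at 1.19% and 1.36%.

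Among 15 paralogs of the 7 genes, 9 of 12 promoters with enough calls were lower with netrin-1 on the means and 3 were higher (median difference -1.71 points), again beside 56.5% lower over all promoters. Tfap2d, an AP-2 gene, had a methylated promoter that stood at 21.8% and 20.0% in the controls and 17.0% and 10.3% in netrin-1 cells (limma, adjusted p = 0.351). Ehf, an ETS-family gene near Elf5, averaged 39.3% ± 1.24 in the controls against 33.3% ± 4.61 in netrin-1 cells (SD, n = 2, limma, adjusted p = 0.639). Elf1 stood at 4.92% and 1.38% against 0.369% and 0%. No promoter or body of these lists passed the test: 1, 1, 4 and 0 promoters and 23, 14, 14 and 3 bodies were tested in the trophoblast, Hippo, paralog and Psg lists, and 0, 0, 1 and 0 promoters and 4, 2, 2 and 0 bodies had an unadjusted p under 0.05, as did 12.8% of all tested gene features.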

How the data were processed

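Per the labels' protocols, MspI fragments were gel-selected, ligated to adaptors, bisulfite-converted and sequenced from both ends. FastQC and the builds GRCm38 and mm10 are named in the submitters' processing notes. The aligner, caller and filters were not given in the sources used here. Per the file headers, the authors deposited, per feature and library, counts of covered positions, of all calls and of methylated calls, and a methylation fraction. That fraction matched methylated calls divided by all calls to 5.55e-16 and is given here as a percent. Duplicate versions of the tables were left out.

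Features with at least 10 calls in every library, levels that were not identical and an information of at least 25 per library on average were tested with a quasi-binomial logistic model over the whole table. Dispersions were moderated with limma 3.58.1 in R 4.3.3, with a trend on coverage, robustly, and kept at or above 1. Benjamini-Hochberg adjustment ran over all tested features, with a threshold of 0.05. The model was also run on simulated data, but the outcome is not given here and no support is drawn from it. No exact permutation test of single features was used, since 2 libraries against 2 allow no two-sided p below 0.333. Alternatives changed the filters, the moderation, the scale, the centring, the block and the libraries. Wilson intervals and limits at 0% (3 calls of the total) cover counting error only, since calls from amplified reads are not independent molecules. Positions are on GRCm38 and count from 1. The genes, the lists and the information minimum were chosen with earlier results of these data known. All 7 genes are named, and from each related list the 3 measured promoters of greatest difference without overlap.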

Additional observations from a re-analysis of the deposited data

How the results depend on the processing

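None of the 52 member features tested under the main settings or an alternative was called, and their lowest adjusted p was 0.0670. The counts over the whole tables moved more. Gene features called, 1 as reported, were 75 without the information minimum, 11 if also not robust, 299 with a replicate block, 18 to 445 with 1 library left out, and 0 without trend, without moderation, with limma on percentage points and with limma on M values. CpG island features called, 22 as reported (14 lower, 8 higher), were 412 without the minimum, 59 if also not robust, 12 without trend, 14 with the replicate block, 22 to 67 with 1 library left out, 0 without moderation and with limma on percentage points, and 1 with limma on M values. With libraries centred the count was again 22, of which 7 were lower and 15 higher. Deviations of same-numbered libraries were correlated at 0.0317 over gene features and -0.000352 over CpG island features, so the numbers were not taken as pairs. Of 18 tested features, 11 changed sign under some alternative. With libraries centred these were the bodies of Elf5 (0.144 points), Tead4 (2.23) and Psg17 (0.646), the outer Tfap2a shelf (0.507), and a Gata3 shelf (1.08) and shore (0.125). With 1 library left out, where 9 differences come without a test because the remaining libraries fell under the information minimum, the ranges were -6.97 to 1.89 points for the Elf5 body, -3.25 to 1.64 for the Tead4 body, -5.11 to 3.33 for the Psg17 body, -1.03 to 1.88 for a Tfap2a shelf and the shore with the same calls, -1.61 to 0.638 for the outer Tfap2a shelf, -2.18 to 2.17 and -1.47 to 1.13 for the Gata3 shelf and shore, -30.8 to 3.23 for the Tfap2c shelf, -4.75 to 2.95 for a Cdx2 shelf and -2.19 to 0.660 for a Cdx2 shore. The mean promoter difference, -6.39 points, was -1.20 as a median, -0.555 weighted by calls and -1.69 with at least 30 calls. The mean body difference, -1.41 points, was 0.0567 weighted by calls and 0.724 with libraries centred. The mean island difference, -0.573 points, was -0.00356 as a median, -0.129 weighted by calls and -0.212 with libraries centred. These centred means are another measure than the centred values of single features above, which came from the fit, and are not their averages. In the centred fit the bodies of Gata3 (-1.38 points), Tfap2c (-0.807), Cdx2 (-0.715) and Tfap2a (-0.719) stayed lower. The cause of these shifts was not tested. Calls and level together limited the tests: 5 promoters and 29 CpG island features with enough calls held too little information.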
